A study of Rattus norvegicus with 6 samples.

Results

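The genes described here encode the chaperones, folding enzymes and degradation factors of the endoplasmic reticulum (ER), together with the IRE1/XBP1 and ATF6 signalling arms that control them. A list of 39 gene names was matched to the gene names of the deposited count tables, and 38 of the 39 were found among 23139 listed genes. Ufm1, which encodes a ubiquitin-like modifier, is not analysed here. In the study, microglia from the cortices of postnatal day 1 Wistar rats were shaken off mixed cultures, purified with CD11b/c beads and stimulated with 100 ng/mL of bacterial lipopolysaccharide (LPS), which activates microglia. The LPS group received LPS together with dimethyl sulfoxide (DMSO), the solvent of the drug, and the LPS/siponimod group received LPS together with 50 µM siponimod, a modulator of sphingosine 1-phosphate receptors. Each group had 3 biological replicates, and polyA-selected RNA was sequenced in 6 libraries. Both groups carried LPS, and cells without LPS are not analysed here. Cultures were harvested 1 or 3 days after stimulation, depending on the readout, and which time applies to the sequenced RNA is not stated for these libraries. The number of animals behind each replicate is not given in the sources used here.

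Secreted and membrane proteins enter the ER through the Sec61 channel, are folded there by BiP, Grp94, lectin chaperones and disulfide isomerases, and leave for the Golgi once folded. Proteins that fail to fold are handed to ER-associated degradation (ERAD), which moves them back to the cytosol for destruction by the proteasome. When unfolded proteins accumulate, IRE1, ATF6 and PERK signal to the nucleus. IRE1 splices the Xbp1 mRNA, ATF6 is cut into an active transcription factor in the Golgi, and PERK slows translation and favours the synthesis of ATF4. In activated microglia and macrophages this machinery carries the load of cytokine and receptor synthesis.

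The libraries held 39484979, 38301365 and 38080379 counts for LPS replicates 1, 2 and 3, and 46643859, 43336006 and 38857441 counts for LPS/siponimod replicates 1, 2 and 3. Levels are given as CPM, counts scaled to a common library total after the TMM normalization of edgeR. A single count corresponded to between 0.0215 and 0.0270 CPM. Derl3, the gene with the fewest counts among the 38, still had 32 in its lowest library. All 12 microglial markers examined had enough counts to be tested. Their summed level was 10079, 8321 and 5598 CPM in LPS replicates 1, 2 and 3 and 4360, 5526 and 3197 CPM in LPS/siponimod replicates 1, 2 and 3, Csf1r being the most abundant. Of the 12, Aif1, Cx3cr1 and Itgam were lower with LPS/siponimod by the test described below, and none was higher. P2ry12, a marker of resting microglia, had 15.8, 15.8 and 1.16 CPM in the LPS libraries against 0.387, 2.37 and 0.317 CPM with LPS/siponimod. It was 10.6-fold lower with LPS/siponimod, and lower in each of the 3 same-numbered pairs, but was not called (adjusted p = 0.0788 in the edgeR test described below). In bulk RNA, fewer cells of a type and less RNA per cell cannot be told apart. The share of counts from mitochondrially encoded genes was 1.54%, 1.39% and 1.41% in LPS replicates 1, 2 and 3, and 0.313%, 0.610% and 0.568% in LPS/siponimod replicates 1, 2 and 3. Both this share and the microglial sum thus moved with the treatment, and their part in the results for ER genes was not tested.

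Replicate 3 of both groups stood apart in markers of other brain cells. Olig1, a marker of the oligodendrocyte lineage, had 1, 5 and 515 counts in LPS replicates 1, 2 and 3 and 2, 3 and 17 in LPS/siponimod replicates 1, 2 and 3. Map2, a neuronal marker, was counted 0, 3 and 162 times with LPS against 1, 1 and 115 times. The summed level of 8 oligodendrocyte lineage markers was 5.34, 5.37 and 36.04 CPM with LPS and 11.4, 10.3 and 22.6 CPM with LPS/siponimod, and that of 6 neuronal markers was 1.70, 1.04 and 11.4 CPM against 4.37, 5.85 and 15.1 CPM. Mbp was the most abundant of the first list and rose with LPS/siponimod, which was the only call in these 2 lists, and Tubb3 was the most abundant of the second. Mog had at most 1 count in any library. Summed levels of 8 astrocyte markers, led by Slc1a3, lay between 24.2 and 59.6 CPM, with Aldoc lower and none higher. Among them, Gfap had 1, 2 and 88 counts with LPS against 0, 0 and 1 with LPS/siponimod, and Slc1a2 had 5, 3 and 82 against 4, 4 and 22. For 6 fibroblast or pericyte markers the sums lay between 3.98 and 11.9 CPM, and Dcn, the most abundant, was the only call and was higher. Of 5 endothelial names 4 were listed, with sums of 165, 213 and 93.0 CPM with LPS and 38.2, 81.9 and 26.2 CPM with LPS/siponimod. Cdh5 was the most abundant of them, Flt1 was lower, and Kdr had no count in any library. Lymphocyte or plasma cell markers summed to at most 0.403 CPM, led by Jchain, and the 5 neutrophil names to at most 2.83 CPM, led by S100a8, which was lower.

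With LPS/siponimod, 11 of the 38 genes were higher and 1 was lower than with LPS. A gene was called where it changed by at least 1.5-fold with an adjusted p no larger than 0.05 in the quasi-likelihood (QL) test of edgeR, the Benjamini-Hochberg adjustment covering 11977 genes. By the same rule 25.3% of all genes tested were called, 13.6% higher and 11.7% lower, against 31.6% of these genes, 28.9% higher and 2.63% lower. The largest rise was that of Dnajb9, a partner of the chaperone BiP, at 10.1-fold. Ern1, which encodes IRE1, Herpud1, a scaffold of ERAD, and Sec61a1, the channel subunit of the translocon, followed at 3.74-fold, 3.15-fold and 2.67-fold. Calr, which encodes the lectin chaperone calreticulin, was 1.87-fold lower. Of the remaining 26 genes, 16 had a positive and 10 a negative log2 fold change (FC). All 38 genes passed the filter on low counts.

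The median log2 FC of the 38 genes was 0.44, against -0.02 for all genes tested. Within the pairs of same-numbered libraries the median difference of log2 CPM was 0.27, 0.13 and 0.58 for replicates 1, 2 and 3. The fitted median was 0.12 without LPS/siponimod replicate 3, and 0.18 without replicate 3 of both groups. In 17 of the 38 genes (44.7%) all 3 LPS/siponimod values lay above all 3 LPS values, and in 3 (7.89%) all lay below, while over all genes tested these shares were 25.3% and 24%, or 49.3% in either direction.

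**Figure D1:**
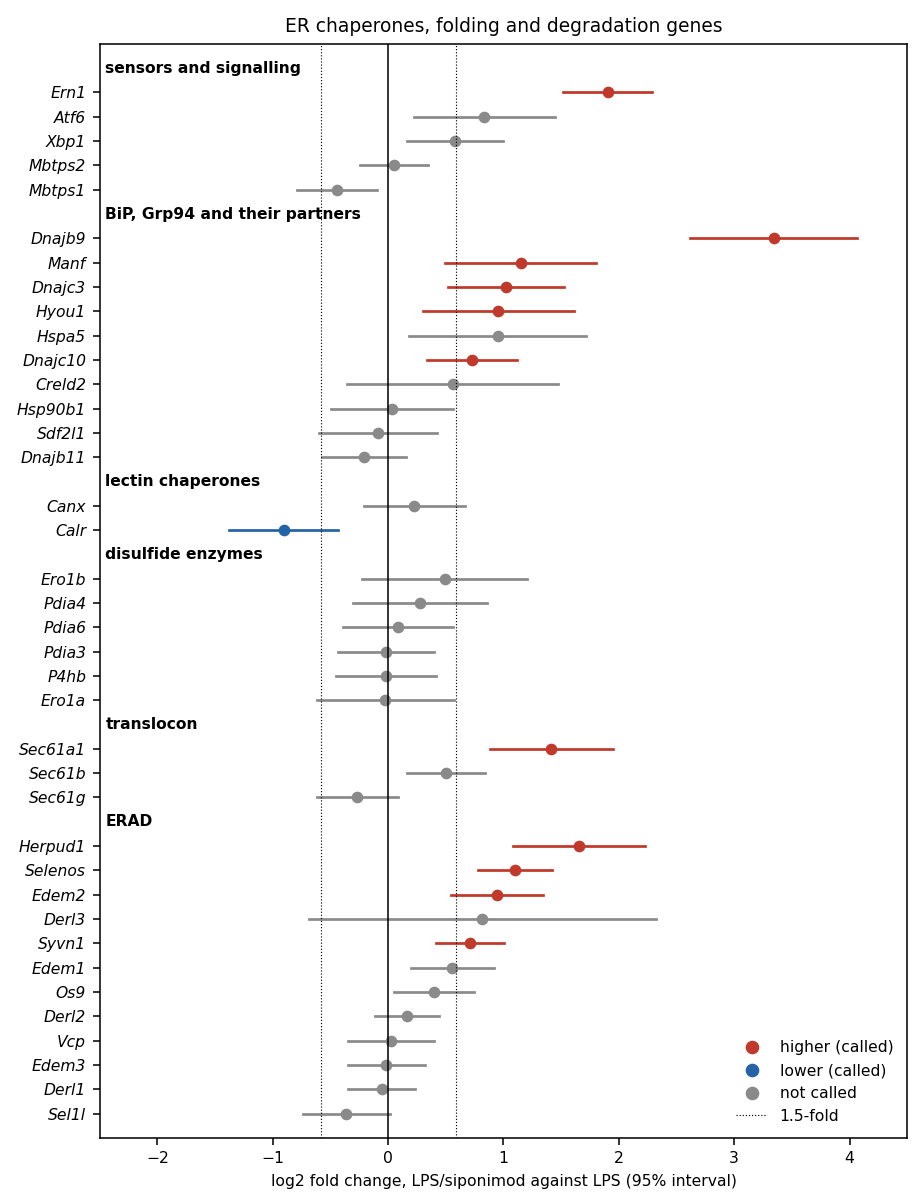
Fitted log2 fold change of LPS/siponimod against LPS for the 38 genes, grouped by role and ordered within each role. Points are estimates from 3 libraries per group, horizontal lines are 95% intervals, dotted lines mark 1.5-fold, red genes were called higher, blue lower and grey not called; Dnajb9 stands furthest to the right at 3.34, and the 6 disulfide enzymes are all grey.

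Leaving out LPS replicate 2, LPS/siponimod replicate 1 or LPS/siponimod replicate 3 changed the number of these genes called higher more than any other choice. Without LPS replicate 3 or LPS/siponimod replicate 2 that number stayed at 11. Of all genes tested, 15.9% and 11.8% were then called higher, and 30.3% and 23.4% in either direction. Without LPS replicate 2 only 4 of the genes were called higher, and without LPS/siponimod replicate 1 or replicate 3 there were 5, none being called lower in these 3 fits. The calls among all genes fell as well, from 3036 to 651, 783 and 1035, or 5.16%, 6.22% and 8.5% of the genes tested. The shares called higher were 3.72%, 4.7% and 6.26%, against 13.6% with all libraries. Ern1, Dnajb9, Herpud1 and Selenos were higher whichever of the 6 libraries was left out, and Sec61a1 in 5 of these 6 fits, its adjusted p being 0.0533 without LPS replicate 2. Without replicate 3 of both groups 10 genes were higher and none lower, Hyou1, Dnajc10 and Calr being lost and Xbp1 gained (adjusted p between 0.0662 and 0.106 for the lost genes and 0.0454 for Xbp1), beside 11.1% of all genes higher and 8.17% lower under that setting. The log2 FC was then 0.66 for Hyou1, 0.59 for Dnajc10 and -0.99 for Calr, against 0.96, 0.73 and -0.91 with all libraries. With the replicate number as a block, 14 genes were higher and 1 lower, the additional genes being Xbp1, Atf6 and Hspa5, while the share of all genes called rose from 25.3% to 34%, with 17.7% higher.

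The promoters of these genes are known for the ER stress response element (ERSE), whose letters are CCAAT, 9 bases of any kind and CCACG, and to which ATF6 binds together with the factor NF-Y. Windows from 250 bases before to 50 bases after the start were taken from RefSeq (build GRCr8) and matched 30 of the 39 names, Ufm1 included. On either strand, 9 of the 30 windows (30%) held the ERSE, against 0.0657% of all 33469 windows and 0.159% of those of the genes tested. Their genes were Xbp1, Hspa5, Hsp90b1, Dnajc3, Creld2, Calr, Canx, Ero1b and Derl3. Of these 9, Dnajc3 was called higher with LPS/siponimod and Calr lower, beside 13.6% and 11.7% of all genes tested, and their median log2 FC was 0.56. With the replicate block 3 of the 9 were higher, Xbp1 and Hspa5 being added, beside 17.7% of all genes. Among the other 20 genes with a window and a measurement, 7 were higher with and without the block, none was lower, and the median was 0.22. The shorter ERSE-II, which reads ATTGG, 1 base of any kind and CCACG, was found for Hyou1, Herpud1 and Dnajb11 (10% of the 30 windows, 0.0508% of all and 0.0793% of those of the genes tested), of which the first 2 were called higher. The letters TGACGTGG, the core of the element that XBP1 binds, were found for Hyou1, Dnajc10 and Vcp (10%, 0.595% and 0.863%), again with the first 2 called higher. TGATGNAA, the core of the elements that bind ATF4 with C/EBP partners, was found for Herpud1 alone (3.33%, 3.98% and 1.92%). The window of Dnajb9 held none of the 4. A match describes the letters of the window and not binding. The 250 bases before the start are printed for the most familiar ERSE gene, the ERSE gene that rose, the ERSE gene that fell, and the 2 genes with ERSE-II that rose, with the matches in capitals.
Hspa5: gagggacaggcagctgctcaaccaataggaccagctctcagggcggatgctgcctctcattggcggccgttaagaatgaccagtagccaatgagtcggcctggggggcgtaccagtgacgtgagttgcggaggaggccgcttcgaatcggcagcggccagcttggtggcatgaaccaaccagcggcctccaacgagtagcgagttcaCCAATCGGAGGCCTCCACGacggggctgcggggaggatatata
Dnajc3: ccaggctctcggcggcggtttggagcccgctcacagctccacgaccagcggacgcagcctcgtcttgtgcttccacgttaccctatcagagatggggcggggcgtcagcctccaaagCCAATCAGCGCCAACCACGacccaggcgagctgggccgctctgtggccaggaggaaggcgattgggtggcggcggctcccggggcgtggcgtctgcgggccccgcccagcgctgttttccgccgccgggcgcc
Calr: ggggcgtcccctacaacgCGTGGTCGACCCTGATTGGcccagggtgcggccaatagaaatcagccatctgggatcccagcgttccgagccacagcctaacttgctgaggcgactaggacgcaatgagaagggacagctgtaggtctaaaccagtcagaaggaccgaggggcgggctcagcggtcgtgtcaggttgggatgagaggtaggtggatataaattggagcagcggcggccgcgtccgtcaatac
Hyou1: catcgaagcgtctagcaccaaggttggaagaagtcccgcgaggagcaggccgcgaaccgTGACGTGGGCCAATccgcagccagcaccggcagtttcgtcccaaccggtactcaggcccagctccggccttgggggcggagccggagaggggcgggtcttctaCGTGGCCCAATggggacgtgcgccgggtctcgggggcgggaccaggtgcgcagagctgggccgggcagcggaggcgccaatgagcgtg
Herpud1: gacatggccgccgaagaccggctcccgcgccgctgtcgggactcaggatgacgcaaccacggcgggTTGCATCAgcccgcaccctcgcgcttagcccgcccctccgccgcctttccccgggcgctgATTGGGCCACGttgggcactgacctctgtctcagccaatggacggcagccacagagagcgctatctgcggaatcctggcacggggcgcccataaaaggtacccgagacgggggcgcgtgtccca

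These stretches lie at chr3:38452766-38453015 on the plus strand for Hspa5, at chr15:102432417-102432666 on the plus strand for Dnajc3, at chr19:40213117-40213366 on the plus strand for Calr, at chr8:53602632-53602881 on the plus strand for Hyou1 and at chr19:10614708-10614957 on the minus strand for Herpud1 (GRCr8, 1-based). The last base before the start being -1, the ERSE lies at -43 to -25 in Hspa5, at -133 to -115 in Dnajc3 and, on the opposite strand, at -232 to -214 in Calr. In Hyou1 the letters TGACGTGG at -191 to -184 overlap the first ERSE-II at -188 to -178, and a second ERSE-II lies at -88 to -78, both on the opposite strand. In Herpud1 the ERSE-II lies at -124 to -114, and the opposite strand of -184 to -177 holds TGATGNAA. Hspa5 had a log2 FC of 0.95, Dnajc3 of 1.02, Hyou1 of 0.96, Herpud1 of 1.66 and Calr of -0.91, so that the ERSE was found before Dnajc3, which rose, as well as before Calr, which fell.

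Of the 5 sensors and signalling genes, Ern1 was higher (20%, beside 13.6% of all genes tested) and the other 4 were not called. Ern1, the kinase and endonuclease that splices the Xbp1 mRNA, had 8.04, 8.31 and 8.40 CPM in LPS replicates 1, 2 and 3 and 35.8, 25.8 and 30.9 CPM in LPS/siponimod replicates 1, 2 and 3. The LPS libraries were nearly alike, and every LPS/siponimod library lay above them. The log2 FC was 1.90 (standard error, SE, 0.16; adjusted p = 0.00374 in the QL test of edgeR). Xbp1, the target of that splicing, had 69.1, 80.4 and 101 CPM with LPS and 120.3, 117 and 137 CPM with LPS/siponimod. Its groups did not overlap, but the change of 1.49-fold missed the fold threshold (log2 FC 0.58, SE 0.17, adjusted p = 0.0498), and Xbp1 was called higher with the replicate block (0.59, adjusted p = 0.0234), without LPS replicate 3 (0.74, adjusted p = 0.0195) and without replicate 3 of both groups (0.67, adjusted p = 0.0454). The tables give 1 total per gene, so that spliced and unspliced Xbp1 cannot be told apart. Atf6 had 93.0, 184 and 149 CPM with LPS and 260.0, 251 and 249 CPM with LPS/siponimod. The LPS/siponimod libraries were close to each other, whereas LPS replicate 1 was low (log2 FC 0.83, SE 0.25, adjusted p = 0.0519). Atf6 was called higher with the block (adjusted p = 0.0381), with DESeq2 (0.0135) and with the likelihood ratio test (0.0184), and with single libraries left out its adjusted p ranged from 0.0579 to 0.162. The 2 proteases that cut ATF6 in the Golgi did not pass the test. Mbtps1, the first to cut, had a log2 FC of -0.45 with an adjusted p of 0.0607, and all LPS/siponimod values (50.7, 69.5 and 56.0 CPM) lay under those with LPS (78.2, 79.2 and 82.5 CPM). Without LPS/siponimod replicate 2 it was called lower (-0.59, adjusted p = 0.0242). Mbtps2 had a log2 FC of 0.05 (95% interval -0.24 to 0.34).

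Among the 10 genes for BiP, Grp94 and their partners, 5 were higher (50%) and none was lower, beside 13.6% and 11.7% of all genes tested. Their median log2 FC was 0.84. Dnajb9, a J-domain protein that works with BiP and restrains IRE1, had 15.5, 14.1 and 18.3 CPM in LPS replicates 1, 2 and 3 and 163, 105 and 218 CPM in LPS/siponimod replicates 1, 2 and 3. Each LPS/siponimod library exceeded each LPS library several times over (log2 FC 3.34, SE 0.30, adjusted p = 0.00416 in the edgeR QL test). Manf, an ER protein that binds BiP and can be secreted as a trophic factor, had 48.5, 70.4 and 83.7 CPM with LPS against 144, 115 and 190.3 CPM. The groups did not overlap, and the log2 FC was 1.15 (SE 0.27, adjusted p = 0.027). Dnajc3, a further J-domain partner of BiP, had 45.0, 59.8 and 67.3 CPM against 124, 93.2 and 133 CPM (log2 FC 1.02, SE 0.21, adjusted p = 0.0185). Hyou1, which exchanges the nucleotide bound to BiP, had 144, 208 and 179 CPM against 294, 263 and 475 CPM. LPS/siponimod replicate 3 was the highest by a wide margin, and the log2 FC of 0.96 (SE 0.27, adjusted p = 0.0439) fell to 0.66 without that library (adjusted p = 0.0987). Dnajc10, a J-domain protein that also reduces disulfide bonds ahead of degradation, had 29.8, 27.6 and 28.5 CPM against 48.8, 37.8 and 55.6 CPM, a log2 FC of 0.73 (SE 0.16, adjusted p = 0.0236). Without LPS replicate 2, LPS/siponimod replicate 1 or LPS/siponimod replicate 3, the adjusted p of Manf, Dnajc3 and Dnajc10 lay between 0.0664 and 0.0962. Without LPS replicate 1 it was 0.0619 for Manf and 0.0596 for Dnajc10, and without replicate 3 of both groups it was 0.0750 for Dnajc10 and 0.106 for Hyou1. Hyou1 was called in 1 of the 6 fits with a library left out, that without LPS/siponimod replicate 2.

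Hspa5, which encodes BiP itself, was not called. It had 555, 884 and 1029 CPM in LPS replicates 1, 2 and 3 and 1405, 1249 and 2113 CPM in LPS/siponimod replicates 1, 2 and 3. The groups did not overlap, but both were spread widely, and the log2 FC of 0.95 (SE 0.32) had an adjusted p of 0.067 in the edgeR QL test. With the replicate block the adjusted p was 0.0292, with the likelihood ratio test 0.0226 and with DESeq2 0.0144, and with single libraries left out it ranged from 0.0545 to 0.187. Hsp90b1, which encodes Grp94, had 808, 1014 and 957 CPM against 827, 810 and 1204 CPM, values that overlapped (log2 FC 0.03, 95% interval -0.50 to 0.56, adjusted p = 0.924). Sdf2l1, a partner of the BiP system, also overlapped, with 63.7, 83.7 and 50.6 CPM against 61.7, 53.5 and 70.9 CPM (log2 FC -0.09, 95% interval -0.60 to 0.43). Creld2, a small ER protein that can be secreted, had a log2 FC of 0.56 with a wide interval (-0.36 to 1.48), and Dnajb11, a J-domain partner of BiP, had -0.21 (-0.57 to 0.15). The 95% interval of Hspa5, from 0.18 to 1.72, overlaps that of Hsp90b1, and the difference between the 2 genes was not tested.

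**Figure D2:**
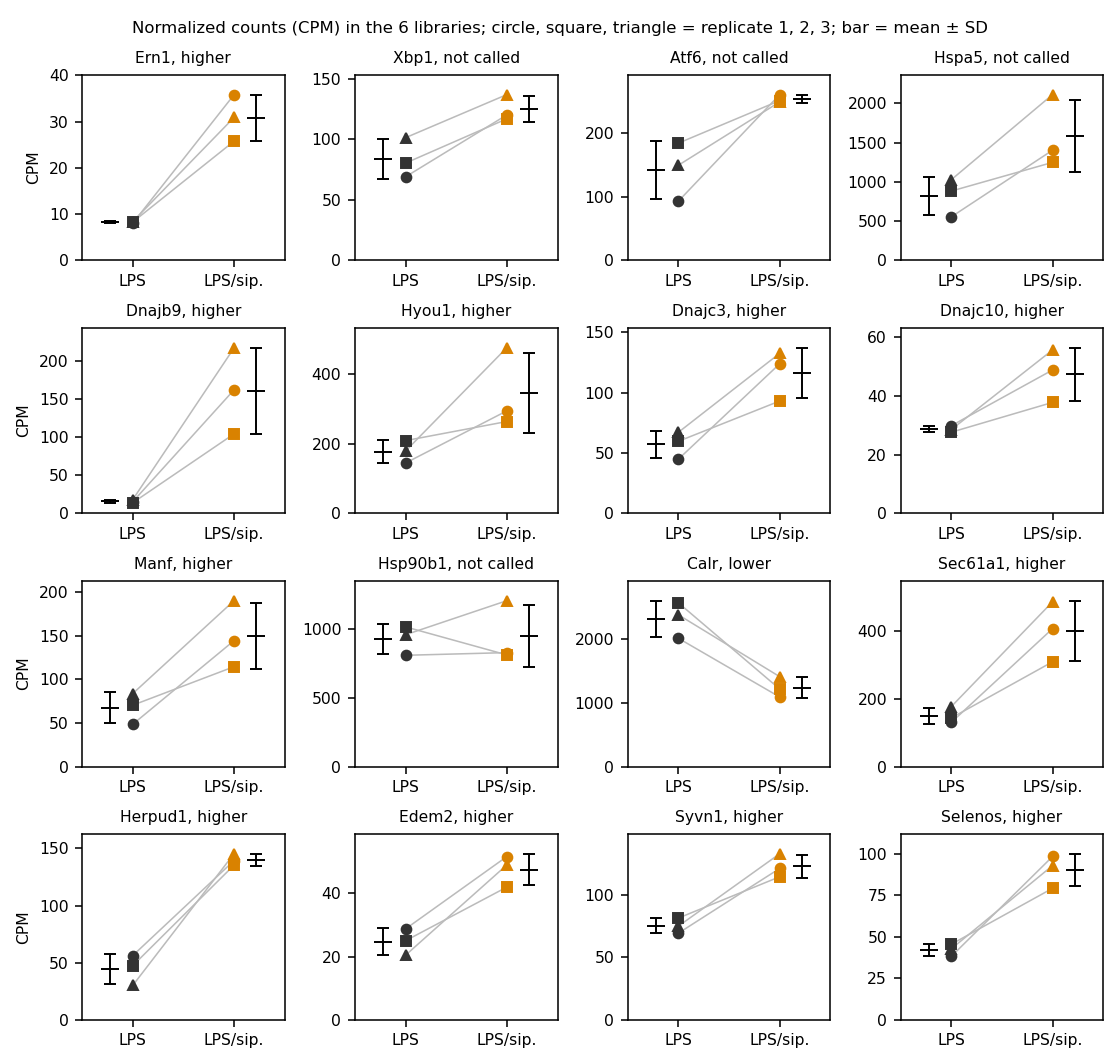
Normalized counts (CPM, vertical axes starting at 0) of 16 genes in the 3 LPS libraries (black) and the 3 LPS/siponimod libraries (orange). Grey lines join libraries with the same replicate number and bars show mean ± SD; Dnajb9 and Ern1 are tightly low with LPS, Calr is the only one called lower, and the values of Hsp90b1 overlap.

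Of the 2 lectin chaperones, which hold newly made glycoproteins in the folding cycle, Calr was lower (50%, beside 11.7% of all genes tested). Canx was not called. Calr had 2015, 2572 and 2383 CPM in LPS replicates 1, 2 and 3 and 1092, 1217 and 1412 CPM in LPS/siponimod replicates 1, 2 and 3. Every LPS/siponimod library lay below every LPS library, and Calr fell from 2323 ± 283 to 1240.5 ± 161 CPM (SD, n = 3 each). The log2 FC was -0.91 (SE 0.20, adjusted p = 0.0215 in the edgeR QL test), and the adjusted p rose to 0.0862 without LPS replicate 2, to 0.0960 without LPS/siponimod replicate 1, to 0.0617 without LPS/siponimod replicate 3 and to 0.0662 without replicate 3 of both groups. Canx, the membrane-bound counterpart, had a log2 FC of 0.23 (95% interval -0.21 to 0.67).

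None of the 6 disulfide enzymes was called, beside 25.3% of all genes tested. P4hb, the classical protein disulfide isomerase, had 2695 ± 265 CPM with LPS and 2662 ± 157 CPM with LPS/siponimod (± SD, n = 3 per group; log2 FC -0.02, 95% interval -0.46 to 0.42). Pdia3, the isomerase that works with calnexin and calreticulin, had 755 ± 31.2 and 747 ± 121 CPM (log2 FC -0.02, 95% interval -0.43 to 0.40). Neither interval reaches a 1.5-fold change in either direction. Pdia6 had a log2 FC of 0.09 (-0.39 to 0.56) and Pdia4 of 0.28 (-0.31 to 0.86). Ero1a, the oxidase that recharges the isomerases, had 360.0, 189 and 288 CPM with LPS and 297, 255 and 271 CPM with LPS/siponimod, the LPS libraries enclosing the others (log2 FC -0.03, 95% interval -0.62 to 0.57). Ero1b, its relative, had 9.42, 9.11 and 8.86 CPM against 10.7, 8.96 and 18.9 CPM. Only LPS/siponimod replicate 3 stood out, and the log2 FC of 0.49 (adjusted p = 0.244) was 0.11 without it and 0.088 without replicate 3 of both groups.

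Of the 3 subunits of the Sec61 translocon, the channel subunit rose (33.3%, beside 13.6% of all genes tested). The 2 small subunits did not reach the threshold. Sec61a1 had 129.9, 143 and 176 CPM in LPS replicates 1, 2 and 3 and 406, 308 and 485 CPM in LPS/siponimod replicates 1, 2 and 3. The groups were well separated (log2 FC 1.42, SE 0.22, adjusted p = 0.00994 in the edgeR QL test). Sec61b was higher in each LPS/siponimod library than in any LPS library, but its change of 1.42-fold lay under the fold threshold (log2 FC 0.50, SE 0.14, adjusted p = 0.0429). Sec61g had a log2 FC of -0.27 (95% interval -0.62 to 0.09). The 95% interval of Sec61a1, from 0.89 to 1.95, lies above those of the other 2 subunits, of which that of Sec61b ends at 0.84, and the difference itself was not tested.

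In ERAD, 4 of 12 genes were higher (33.3%) and none was lower, beside 13.6% and 11.7% of all genes tested. Their median log2 FC was 0.48. Herpud1, which gathers the ubiquitin ligase complex in the ER membrane, had 56.1, 47.3 and 30.0 CPM in LPS replicates 1, 2 and 3 and 139, 135 and 145 CPM in LPS/siponimod replicates 1, 2 and 3. The LPS/siponimod libraries were nearly alike, and the log2 FC was 1.66 (SE 0.24, adjusted p = 0.00861 in the edgeR QL test). Selenos, a selenoprotein that recruits the p97 ATPase to the membrane, had 38.2, 45.5 and 42.7 CPM against 98.6, 79.3 and 93.1 CPM, and its groups were far apart. Its log2 FC was 1.10 (SE 0.13, adjusted p = 0.00684). Edem2, which starts the trimming of mannose from proteins bound for degradation, had 28.8, 25.0 and 20.4 CPM against 51.7, 42.0 and 49.1 CPM (log2 FC 0.94, SE 0.16, adjusted p = 0.0128). Syvn1, the HRD1 ubiquitin ligase, had 69.5, 81.7 and 75.2 CPM against 122, 115 and 133 CPM (log2 FC 0.71, SE 0.12, adjusted p = 0.0125). The groups of both genes did not overlap. With LPS/siponimod replicate 1 or 3 or LPS replicate 2 left out, both missed the threshold, with adjusted p-values between 0.0504 and 0.0641.

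The other ERAD genes were not called. Edem1, a further mannose-trimming factor and a familiar XBP1 target, had 269, 351 and 315 CPM with LPS and 449, 475 and 451 CPM with LPS/siponimod. Its groups did not overlap, and the adjusted p of 0.0374 passed, but the change of 1.47-fold did not reach 1.5-fold (log2 FC 0.56, SE 0.15). Edem3, its relative, had a log2 FC of -0.01 (95% interval -0.35 to 0.32). Sel1l, the partner that stabilizes HRD1, had 301, 393 and 347 CPM against 244, 285 and 280 CPM. Its log2 FC of -0.36 (95% interval -0.74 to 0.01, adjusted p = 0.124) stood beside 0.71 for Syvn1, and the difference between these partners was not tested. Os9, the lectin that delivers glycoproteins to this complex, had a log2 FC of 0.40 (adjusted p = 0.083). The derlins, membrane proteins of the exit route, had log2 FCs of -0.05 for Derl1, 0.17 for Derl2 and 0.82 for Derl3, the last with an SE of 0.62 at 32 to 186 counts per library. Vcp, which encodes the p97 ATPase that pulls proteins out of the membrane, had 608 ± 43.5 and 618 ± 64.1 CPM (± SD, n = 3 per group; log2 FC 0.02, 95% interval -0.35 to 0.39).

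Same-numbered libraries were compared because the replicate numbers were taken to pair the libraries of the 2 groups. The sample titles give the numbers and do not state a pairing. All 11 genes called higher were higher in each of the 3 pairs, as were all 1633 genes called higher, and Calr was lower in each. For 10 of the 11 the smallest difference was that of replicate 2, as it was for 50.3% of all genes called higher. Dnajb9 differed by 3.39, 2.89 and 3.57 on the log2 scale in pairs 1, 2 and 3, and Manf by 1.57, 0.70 and 1.18. Herpud1 was the exception, with 1.31, 1.52 and 2.28. Hspa5 was higher in each pair as well, by 1.34, 0.50 and 1.04, and the second pair again gave the smallest difference. Hsp90b1 changed sign between pairs, with 0.03, -0.32 and 0.33.

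**Figure D3:**
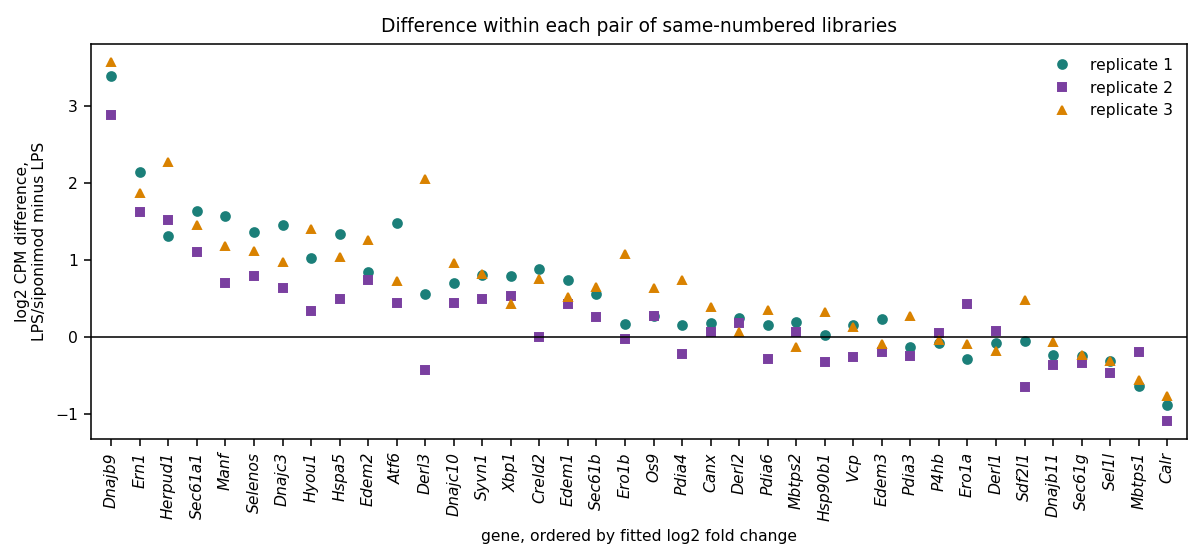
Difference of log2 CPM (LPS/siponimod minus LPS, prior count of 2) within each pair of same-numbered libraries for the 38 genes, ordered by the fitted log2 FC. Circles, squares and triangles are replicates 1, 2 and 3; replicate 2 gives the lowest symbol for 10 of the 11 genes called higher, and Calr is below 0 in all 3 pairs.

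Further genes of the pathway were taken from lists of well-known members and counted by the same rule. In the PERK arm and the integrated stress response, 11 of 15 genes were higher and 1 was lower, with a median log2 FC of 1.24 and a share of calls of 80% against 25.3% of all genes. Eif2ak3, which encodes PERK, rose from 14.0 ± 3.60 to 33.1 ± 4.42 CPM (± SD, n = 3 per group; log2 FC 1.24, SE 0.23, adjusted p = 0.0148 in the edgeR QL test). Atf4, the transcription factor of this arm, had a log2 FC of 2.44 and Ddit3, its death-associated target CHOP, of 3.11 (adjusted p = 0.00321 and 0.0036). Atf5, Trib3 and Chac1 had the smallest p-values, with log2 FCs of 2.83, 4.76 and 3.56, and Eif2ak2, an antiviral kinase of the same family as PERK, was lower (-1.41, adjusted p = 0.00779).

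The other lists of ER genes are given in turn. Among 25 other folding enzymes, 3 were higher (Pdia5, Tmx3 and Txndc5, with log2 FCs of 1.62, 0.68 and 0.77) and 2 lower (Erp29 and Fkbp7, with -1.48 and -1.42), and the median was 0.05. Erp29, an ER protein of the thioredoxin fold, fell from 162 ± 43.3 to 58.3 ± 14.4 CPM (SD, n = 3 each). Of 32 other ERAD genes, 4 were higher and none lower (median 0.26). In order of p these were Herpud2, the relative of Herpud1 (1.22, adjusted p = 0.00842), Ubxn6 (0.63), Man1b1 (0.62) and Ubxn4 (1.19, adjusted p = 0.0338), the last named after its value was seen. Of 25 genes for translocation, signal peptide removal and glycan transfer, 3 were higher and 1 lower (median 0.28). These were Tram1, Ssr3 and Ostc, with 0.77, 0.81 and 0.93, and the signal peptidase subunit Spcs1, with -0.64. The share of calls in these 3 lists was 20%, 12.5% and 16%, each under the 25.3% of all genes.

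Of 11 partners of IRE1 and related factors, 1 was called, Creb3l2, an ER-anchored transcription factor (log2 FC 2.33, adjusted p = 0.00881). In transport from the ER to the Golgi, 3 of 20 genes were higher and none lower (median 0.27). Kdelr3, a receptor that returns chaperones to the ER, led with 2.63 (adjusted p = 0.00396), followed by Sec24a, a coat subunit, with 0.71 and the cargo receptor Surf4 with 0.73. Of 7 ER-phagy receptors, which deliver pieces of the ER to lysosomes, Tex264 and Ccpg1 were higher with 1.62 and 3.20. For comparison, 4 of 17 cytosolic heat shock chaperones were higher and none lower (median 0.18). Hspa4l had the largest change of that list, from 3.27 ± 2.86 to 366 ± 130 CPM (SD, n = 3 each; 6.81, adjusted p = 0.00668), and Bag3 and Hsf1 had 1.28 and 0.68. These 3 lists and the cytosolic one had shares of calls of 9.09%, 15%, 28.6% and 23.5%, beside 25.3% of all genes tested.

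**Figure D4:**
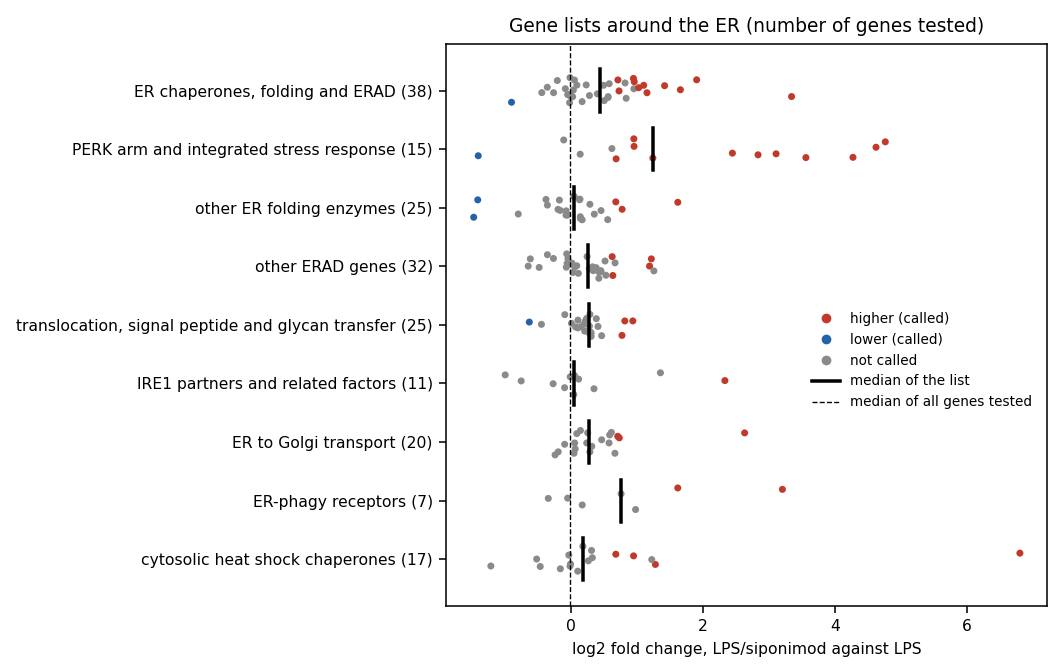
Fitted log2 FC of every tested gene in the 38 ER genes and in 8 lists of related genes, with the number of genes tested in parentheses. Each point is a gene (red higher, blue lower, grey not called), vertical bars are list medians, the dashed line is the median of all genes tested, and the vertical spread of points within a list carries no value; the median is 0.44 for the ER genes and 1.24 for the PERK arm.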

How the data were processed

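The authors converted and demultiplexed single-end reads with bcl2fastq (version 2.20.0.422), trimmed them and mapped them to the rat genome (mRatBN7.2 per the labels) in the CLC Genomics Workbench. The deposited values are raw total counts of each gene, 1 table per library. How strand, introns and reads that match several genes were handled is not given in the sources used here, so that values of overlapping or near-identical genes are uncertain. In 1 table, 1 row without a name or value was left out.

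The software was edgeR 4.0.16, limma 3.58.1 and DESeq2 1.42.0 under R 4.3.3. Genes were kept by filterByExpr (minimum count of 10, minimum total of 15), scaled by TMM and tested for the condition, without covariates, by glmQLFit and glmQLFTest (the quasi-likelihood test). The standard error is the log2 FC divided by the root of the F statistic, and CPM are scaled by TMM. No set test was run. With 3 libraries against 3, an exact permutation test of a single gene cannot go below p = 0.1, so that each adjusted p also rests on the spread estimated across genes. Libraries of a condition were not copies of each other, with at most 1.21% of genes at equal counts.

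The genes, gene lists and tests were chosen with earlier results of these data known. Counts in all 6 libraries are given for the genes called and for 14 fixed names, 1 of which, Ufm1, is not analysed here. Those of Mbtps1 and Sel1l were added after their values were seen. From the lists, the text names the called genes of smallest p (at most 3 per direction), and Eif2ak3, Atf4 and Ddit3 in addition. Ubxn4 was added after its value was seen. Deviations of log2 CPM from the group means correlated across genes at 0.418, 0.546 and 0.610 between libraries with the same number and at no more than 0.0836 between the rest, so that the numbers were taken to pair the libraries. Alternatives were RLE factors, DESeq2, the likelihood ratio test, no filter, the replicate block, each library left out and, chosen after seeing the data, replicate 3 of both groups left out. The procedure was tested on simulated data, and no result of that test is given here. The result of 1 further gene list is not reported here.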

Additional observations from a re-analysis of the deposited data

How the results depend on the processing

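With RLE factors, DESeq2, the likelihood ratio test, no filter or the replicate block, the number of all genes called, the numbers of ER genes called higher and lower and the median log2 FC stayed within 1.5 times of 3036, 11, 1 and 0.44 or within the spread between pairs. With the replicate block, 14 ER genes were higher, Xbp1, Atf6 and Hspa5 being added, and no other call of a named ER gene changed; the block gave 4074 calls in all. With single libraries left out, genes called ranged from 651 to 3713, ER genes called higher from 4 to 11, those called lower from 0 to 2 (Mbtps1 being the second, without LPS/siponimod replicate 2), and the median from 0.12 to 0.48. With replicate 3 of both groups left out, no ER gene was called lower (0) and the median was 0.18. Fewer samples entered these fits.

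All alternatives were run for 20 ER genes, those called and those whose 6 values are given by a fixed rule, and 3 of the 20 changed sign in any of them. Hsp90b1 was at -0.04 without LPS replicate 1, -0.17 without LPS/siponimod replicate 3 and -0.15 without replicate 3 of both groups. Sdf2l1 was at 0.13 without LPS replicate 2 and otherwise negative, down to -0.35 without replicate 3 of both groups. Ero1a ranged down to -0.23 without LPS replicate 2, and was at 0.021 with the replicate block, 0.22 without LPS replicate 1, 0.00079 without LPS replicate 3, 0.02 without LPS/siponimod replicate 2 and 0.01 without replicate 3 of both groups. The cause was not tested. Without the filter, Hyou1 missed the threshold (adjusted p = 0.0538). With DESeq2 or the likelihood ratio test, 13 ER genes were higher, Atf6 and Hspa5 being added, beside 11.7% and 15.3% of all genes tested by each. Depth was lowest for Derl3, at 32 to 186 counts per library, and its part in the width of the intervals was not tested.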
